A study of Mus musculus with 4 samples.

Results

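The genes described here encode the mTOR kinase complexes, the proteins that switch them on and off, and their best known direct substrates: Mtor, Rptor, Rictor, Mlst8, Tsc1, Tsc2, Rheb, Ddit4, Rps6kb1 and Eif4ebp1. They were chosen by symbol, and every array probe whose RefSeq transcript maps to one of the 10 genes was taken, which gave 17 of 41174 probes. The study measured RNA recovered by immunoprecipitation with a FLAG tag (FLAG IP) from mouse testis at postnatal day 7, and RNA of the starting material (Input), each on 2 single-colour Agilent whole-genome arrays. All 4 samples came from males carrying a transgene in which a Nanos2 enhancer drives Nanos2 joined to a triple FLAG tag, followed by a 3′ untranslated region. NANOS2 binds RNA in male germ cells and keeps spermatogonial stem cells undifferentiated, and the comparison asks which transcripts are recovered with it. The series states that duplicates are biological without naming animals, so the p-values measure the spread between these samples. All groups carry the transgene, and no immunoprecipitate from untagged testis was analysed here, so a difference means that a transcript made up a larger or smaller share of the recovered RNA, which is not a measure of binding.

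mTOR is a protein kinase that couples growth and protein synthesis to growth factors, amino acids and energy supply. With RPTOR it forms mTORC1, which phosphorylates S6 kinase and the repressors of the cap-binding protein eIF4E, and with RICTOR it forms mTORC2, which phosphorylates AKT. The small GTPase RHEB activates mTORC1, and the TSC1 and TSC2 proteins hold RHEB in its inactive form. In the testis, mTORC1 activity is known to favour differentiation of spermatogonia, and the stem cell factor PLZF is known to restrain it through DDIT4.

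Of the 10 transcripts, Rheb rose in the FLAG IP by 1.98-fold, while Mtor was 1.96-fold lower and Tsc2 1.60-fold lower. Tsc1 was 1.88-fold lower on 1 of its 3 probes, and 1 dim Rictor probe was higher. The probes of Rptor, Mlst8, Ddit4, Rps6kb1 and Eif4ebp1 did not pass the test, which was limma with Benjamini-Hochberg adjustment over all tested probes at an adjusted p under 0.05. All changes are FLAG IP minus Input in log2 units, errors of changes are limma standard errors (SE), and n is 2 arrays per group throughout. A level is the log2 ratio of a probe's signal to its array's 75th percentile, and levels compare arrays for 1 probe, not different probes.

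A probe was tested when it was well above background, by the scanner software's flag, on both arrays of at least 1 group. That held for 15 of the 17 probes, of which 14 were well above background on all 4 arrays and 1, of Rictor, passed through the FLAG IP only. Among those 14 probes 1 was called higher and 3 lower. Over all 25827 probes well above background on the 4 arrays, 15.2% were called higher and 19.0% lower, which is 34.2% in either direction, so the count for the mTOR genes is near that background. Both FLAG IP arrays stood above both Input arrays for 4 of the 14 probes and below them for 5, against 30.7% and 42.7% of all such probes. The median change of the 14 was −0.06, beside −0.11 over the 25827 probes. Over all 27830 tested probes it was −0.13, with 15.6% called higher and 20.1% lower, 35.6% in all. Of the 15 tested probes 5 had both FLAG IP arrays above and 5 below, against 30.5% and 43.3% of all tested probes.

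**Figure D1:**
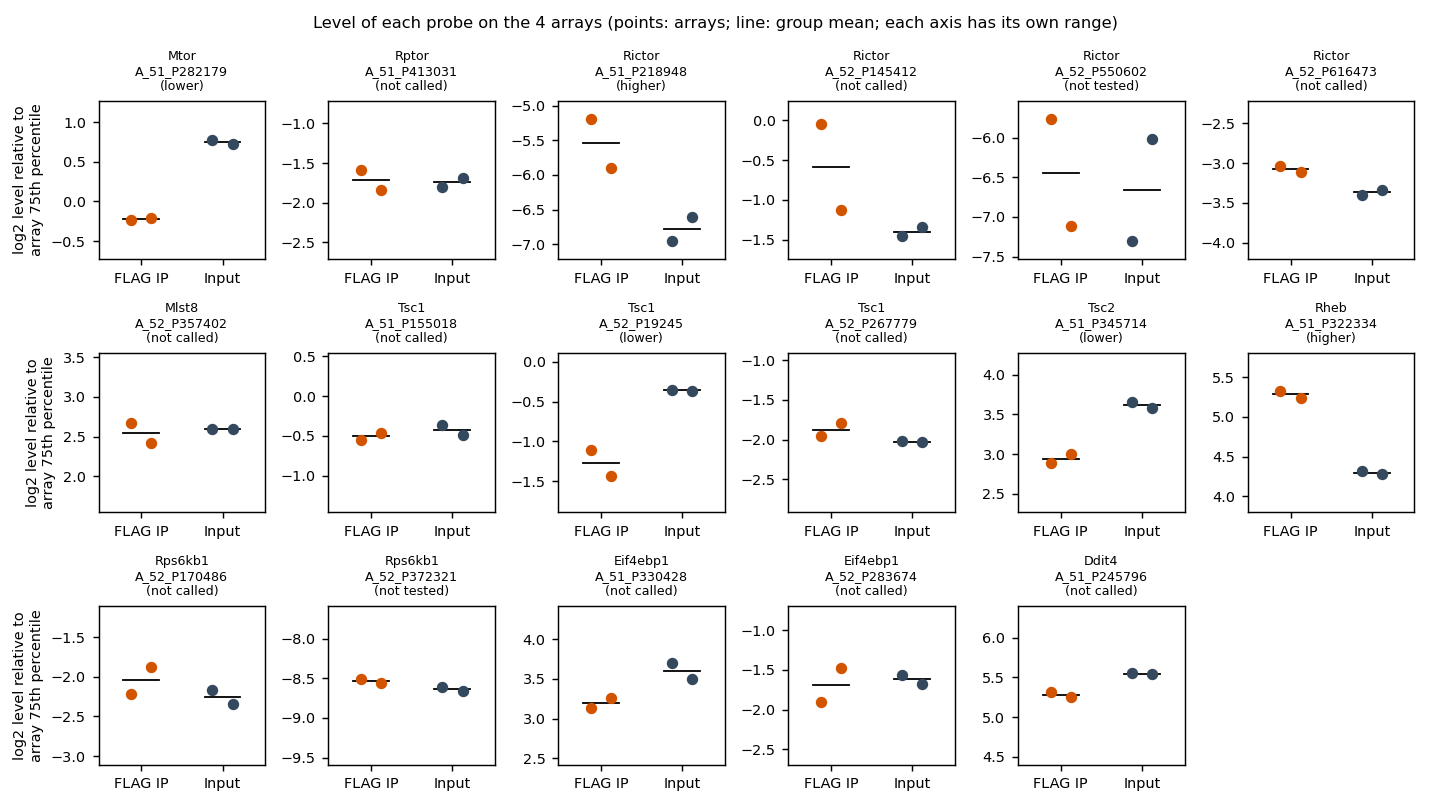
Level of each of the 17 probes on the 4 arrays, as log2 signal relative to the array's 75th percentile. Points are arrays, lines are group means and each panel has its own vertical range. Rheb lies near 5.28 on the FLAG IP arrays and 4.30 on the Input arrays, and Mtor near −0.22 and 0.75.

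The kinase itself was measured by 1 probe. Mtor (NM_020009) had levels of −0.23 and −0.21 on the FLAG IP arrays, against 0.77 and 0.72 on the Input arrays. The groups do not overlap, and the replicates of a group lie within 0.05 of each other. As processed signals before scaling, the probe read 866 and 1093 in the FLAG IP and 2518 and 2766 in the Input. Mtor fell by 0.97 ± 0.13 (SE, adjusted p = 0.011 in limma), with a 95% interval of −1.32 to −0.62. A change as low or lower was found for 9.73% of all tested probes.

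MLST8, a WD-repeat protein bound to the kinase domain in both complexes, was measured by 1 probe. Mlst8 (NM_019988) had levels of 2.67 and 2.42 in the FLAG IP and of 2.59 and 2.59 in the Input. The Input arrays lie between the FLAG IP arrays. Its change was −0.04 ± 0.16 (adjusted p = 0.83 in limma), with an interval of −0.45 to 0.36.

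RPTOR is the scaffold that brings substrates to mTORC1. Rptor (NM_028898) had levels of −1.59 and −1.84 in the FLAG IP, against −1.80 and −1.69 in the Input, so the groups overlap. The change was 0.03 ± 0.16 (adjusted p = 0.90 in limma), with an interval of −0.39 to 0.45.

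RICTOR, the defining subunit of mTORC2, was represented by 4 probes for 1 transcript record (NM_030168), which differed in signal and in scatter. The brightest, A_52_P145412, had levels of −0.04 and −1.13 in the FLAG IP and of −1.46 and −1.35 in the Input. The FLAG IP arrays are both higher, but they differ from each other by 1.08, more than the group difference of 0.82 ± 0.38 (adjusted p = 0.15 in limma). The change of that probe was 1.36 without FLAG IP replicate 2 and 0.28 without FLAG IP replicate 1.

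Probe A_52_P616473 of Rictor had levels of −3.03 and −3.11 in the FLAG IP and of −3.40 and −3.34 in the Input. The groups do not overlap here either, and the change of 0.30 ± 0.14 did not pass (adjusted p = 0.15 in limma). Probe A_51_P218948 had −5.19 and −5.90 in the FLAG IP and −6.96 and −6.60 in the Input, where it was not well above background on either array. Its raw median signal was 1.77 and 1.62 times the local background in the FLAG IP and 1.44 and 1.50 times in the Input. It was at least 1.86-fold higher in the FLAG IP, the Input being set at the lowest signal well above background or its own, whichever was higher, and the fit gave adjusted p = 0.032. The fourth probe, A_52_P550602, was well above background on 1 array of each group and was not tested, at −5.77 and −7.12 in the FLAG IP and −7.30 and −6.02 in the Input. The 3 tested Rictor probes had changes of the same sign and of different sizes. Probe A_51_P218948 passed the filter through the FLAG IP only, which favours that sign, so its agreement is no support for the others. Averaged with it included, the 3 probes gave 0.78 (adjusted p = 0.067 in limma). Averaging the probes, or omitting the filter on dim probes (adjusted p = 0.078), ended the Rictor call. Normexp background correction gave probe A_51_P218948 a change of 0.63, which is less than the 1.86-fold bound. Its offset of 50 shrinks the changes of dim probes by construction, so that value does not test the bound.

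**Figure D2:**
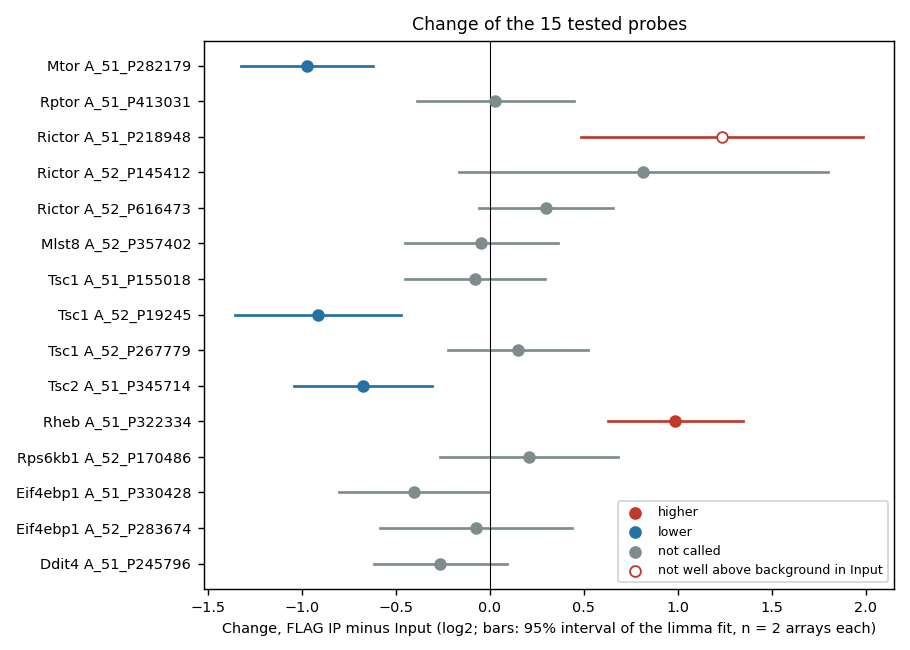
Change of the 15 tested probes, FLAG IP minus Input, in log2 units, with 95% intervals of the limma fit (n = 2 arrays per group). Red marks probes called higher and blue probes called lower. Rheb and a Rictor probe lie to the right at 0.99 and 1.24, and Mtor, Tsc2 and probe A_52_P19245 of Tsc1 to the left at −0.97, −0.68 and −0.91.

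The TSC proteins form the complex whose GTPase-activating subunit, TSC2, inactivates RHEB. Tsc2 (NM_011647) had levels of 2.89 and 3.00 in the FLAG IP, against 3.65 and 3.58 in the Input. Both FLAG IP arrays are lower than both Input arrays. Tsc2 fell by 0.68 ± 0.14 (adjusted p = 0.024 in limma), with an interval of −1.04 to −0.31. TBC1D7, the further subunit of the TSC complex, belongs to the wider pathway genes described below, and its transcript was also lower.

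TSC1 stabilises TSC2. The 3 probes of Tsc1 (NM_022887) were all well above background on every array and did not move alike. Probe A_52_P19245 had levels of −1.11 and −1.43 in the FLAG IP and of −0.35 and −0.37 in the Input, and fell by 0.91 ± 0.17 (adjusted p = 0.019 in limma). Probe A_51_P155018 had −0.55 and −0.46 in the FLAG IP and −0.37 and −0.49 in the Input, a change of −0.08 ± 0.14 (adjusted p = 0.69). Probe A_52_P267779 had −1.95 and −1.79 in the FLAG IP and −2.02 and −2.03 in the Input, a change of 0.15 ± 0.14 (adjusted p = 0.44).

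Among the 3 probes of Tsc1, A_52_P19245 alone had both FLAG IP arrays below both Input arrays. Its interval was −1.36 to −0.47, beside −0.45 to 0.29 and −0.22 to 0.52 for the others. The difference between probes was not tested, and the files used here place no probe along the transcript. Averaged over its probes, Tsc1 had a change of −0.28 (adjusted p = 0.16), so a fall of the Tsc1 transcript as a whole is not shown.

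RHEB is the direct activator of mTORC1. Rheb (NM_053075) had levels of 5.33 and 5.24 in the FLAG IP, against 4.32 and 4.28 in the Input. The groups do not overlap, and replicates lie within 0.09 of each other. As processed signals, the probe read 40914 and 47965 in the FLAG IP and 29452 and 32457 in the Input. Rheb rose by 0.99 ± 0.14 (adjusted p = 0.011 in limma), with an interval of 0.63 to 1.34. Of all tested probes, 89.9% had a change as low or lower.

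The opposite changes of Rheb and of Mtor are relative to the bulk of transcripts on the array. With spike-in control spots as the scale instead, the median change of all tested probes moved by −0.97. Rheb then had a change of 0.01 (adjusted p = 0.98) and the dim Rictor probe 0.26 (adjusted p = 0.57), and both lost their calls, whereas Mtor was at −1.94, Tsc2 at −1.65 and the Tsc1 probe A_52_P19245 at −1.89. That scaling moves every probe by the same amount, so by construction it leaves the differences between probes as they were. When either Input array was left out all 5 calls ended, with adjusted p between 0.080 and 0.18 and changes of −0.947 and −0.997 for Mtor and 1.01 and 0.96 for Rheb. When either FLAG IP array was left out, changes were −0.96 and −0.98 for Mtor and 0.94 and 1.03 for Rheb. Such a fit takes its spread from the Input pair alone, so its calls do not test the FLAG IP replicates.

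**Figure D3:**
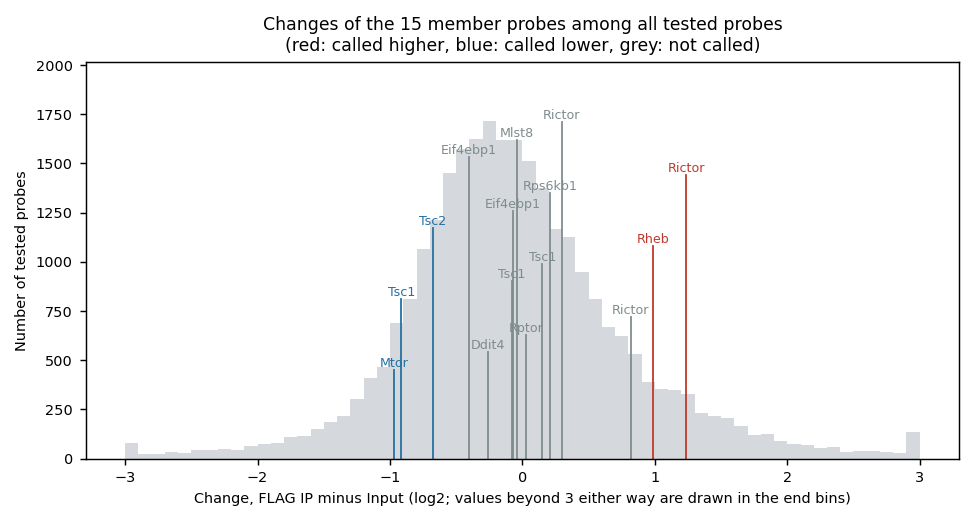
Distribution of the change, FLAG IP minus Input in log2 units, over all 27830 tested probes, as the number of probes per bin, with the 15 probes of the mTOR genes marked by lines whose height has no meaning. The 5 called probes lie in the flanks of the distribution, outside the interquartile range of −0.55 to 0.38.

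DDIT4, also called REDD1, is induced by stress and by glucocorticoids and restrains mTORC1 through the TSC complex. Ddit4 (NM_029083) had levels of 5.32 and 5.25 in the FLAG IP and of 5.55 and 5.54 in the Input. Both FLAG IP arrays are lower, by 0.22 to 0.30 over the array pairs. The change of −0.26 ± 0.14 did not pass (adjusted p = 0.19 in limma), and its interval was −0.62 to 0.09. Under quantile normalization the sign turned, to 0.16 (adjusted p = 0.44).

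Of the mTORC1 substrates, Rps6kb1 encodes the S6 kinase that promotes ribosomal protein S6 phosphorylation and translation. Its probe A_52_P170486 (NM_028259) had levels of −2.22 and −1.88 in the FLAG IP and of −2.16 and −2.34 in the Input. The groups overlap, and the change was 0.21 ± 0.18 (adjusted p = 0.41 in limma). The other probe, A_52_P372321, was not well above background on any array, with raw signals of 1.19 to 1.25 times the local background, and was not tested.

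Eif4ebp1 encodes the repressor that releases eIF4E when mTORC1 phosphorylates it. Its brighter probe, A_51_P330428 (NM_007918), had levels of 3.14 and 3.25 in the FLAG IP and of 3.70 and 3.50 in the Input. The groups do not overlap, and the change of −0.40 ± 0.15 did not pass (adjusted p = 0.099 in limma). Its interval of −0.80 to −0.01 is unadjusted. Probe A_52_P283674 had −1.91 and −1.48 in the FLAG IP and −1.56 and −1.68 in the Input, a change of −0.07 ± 0.19 (adjusted p = 0.78). Leaving out FLAG IP replicate 1 turned the sign of that probe, to 0.14.

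**Figure D4:**
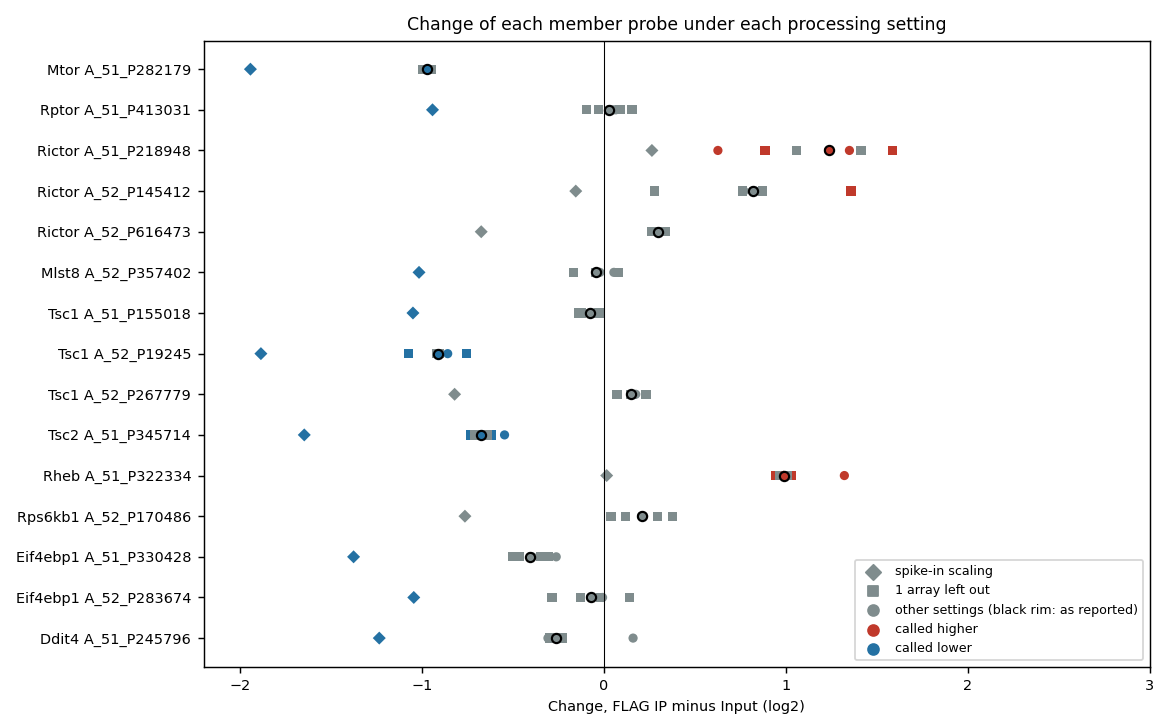
Change of each tested probe of the mTOR genes, FLAG IP minus Input in log2 units, by processing setting. The averaging of a gene's probes and the crossed pairing of arrays are not drawn. Diamonds are spike-in scaling, squares leave out 1 array, circles are the other settings, a black rim marks the value as reported, and colour marks calls. Mtor and Rheb stay within a narrow range except under spike-in scaling, at −1.94 and 0.01, and Rheb under quantile normalization, at 1.32.

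The wider pathway was described with 95 genes in 5 lists, of which 86 had a probe matched and tested, each by its brightest probe. Among the 83 well above background on all 4 arrays, 15 were higher (18.1%) and 9 lower (10.8%). The background over all such named genes was 15.4% higher and 18.7% lower. The median change of the 86 was 0.06, beside −0.12 for all 13261 named genes tested, of which 34.6% were called. No list was tested as a set. With spike-in scaling Pik3cb and Foxo1 stayed called higher among the genes named here, while Rhebl1, Prr5l, Lamtor3, Fnip1, Depdc5, Sesn3, Prkag2 and Rb1cc1 lost their calls.

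Among 10 further subunits, assembly factors and partners of RHEB, 2 were higher and 1 was lower, with a median of −0.10. Rhebl1, which encodes a RHEB-like GTPase, had levels of 2.53 and 2.20 in the FLAG IP and of 0.50 and 0.85 in the Input. It rose by 1.68 ± 0.21 (adjusted p = 0.0084 in limma), and its other probe was higher by 1.40. Rheb and Rhebl1 were thus both called higher. Prr5l, which encodes a protein that associates with mTORC2, rose by 0.92 ± 0.15 (adjusted p = 0.015), although under spike-in scaling it was at −0.050. Tbc1d7 had levels of −1.19 and −0.92 in the FLAG IP and of −0.02 and −0.29 in the Input, and fell by 0.91 ± 0.18 (adjusted p = 0.023). Deptor, which encodes an inhibitor in both complexes, had a change of −0.50 ± 0.23 and did not pass (adjusted p = 0.15). Deptor was at −0.77 without FLAG IP replicate 1 and at −0.23 without FLAG IP replicate 2.

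In the PI3K-AKT branch, which carries growth factor signals to TSC2 and mTORC2, 15 of 18 genes were tested. On all 4 arrays 13 were well above background, of which 4 were higher and 2 lower, and the list median was −0.09. Pik3cb, a catalytic subunit of PI3K, had levels of 0.55 and 0.28 in the FLAG IP and of −1.54 and −1.43 in the Input, and rose by 1.90 ± 0.16 (adjusted p = 0.0052 in limma). For Inpp4b, a lipid phosphatase, neither FLAG IP array was well above background, and it was at least 1.57-fold lower there (adjusted p = 0.013). Its change was 0.031 under normexp background correction, whose offset shrinks dim changes, so that value does not test the bound.

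The amino acid branch acts through the Rag GTPases on the lysosome. Of its 26 genes 23 were tested, and among the 22 on all 4 arrays 3 were higher and 3 lower, with a list median of 0.06. Lamtor3, a subunit of the Ragulator anchor of the Rag GTPases, had levels of 4.72 and 4.64 in the FLAG IP and of 3.43 and 3.32 in the Input, and rose by 1.30 ± 0.14 (adjusted p = 0.0070 in limma). Fnip1, a partner of folliculin, rose by 1.37 ± 0.16 (adjusted p = 0.0079), and its other probes had changes of 0.87 (adjusted p = 0.057), 0.95 and 1.43. Depdc5, a subunit of the GATOR1 complex that inactivates Rag GTPases, had neither Input array well above background and was at least 2.43-fold higher in the FLAG IP (adjusted p = 0.011). Depdc5 thus passed the filter through the FLAG IP only. Normexp background correction, whose offset shrinks dim changes, gave it a change of 0.62, which is less than the 2.43-fold bound but does not test it.

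The energy and stress branch, which includes AMPK and the sestrins, had 15 of 16 genes tested, with 2 higher, 1 lower and a median of 0.05. Sesn3, which encodes a stress-induced inhibitor of mTORC1, had levels of 1.97 and 2.53 in the FLAG IP and of 0.71 and 0.59 in the Input. The groups do not overlap, and it rose by 1.60 ± 0.23 (adjusted p = 0.011 in limma). Prkag2, a regulatory subunit of AMPK, rose by 0.67 ± 0.15 (adjusted p = 0.032), and under spike-in scaling it was at −0.30. Atf4, a transcription factor of the amino acid response, fell by 0.65 ± 0.17 (adjusted p = 0.040). Without FLAG IP replicate 1 Prkag2 lost its call (adjusted p = 0.061), and without FLAG IP replicate 2 Atf4 lost its call (adjusted p = 0.067). Prkaa2, a catalytic subunit of AMPK, had a change of −0.79 ± 0.26 and did not pass (adjusted p = 0.076). Prkaa2 was at −1.13 without FLAG IP replicate 1 and at −0.45 without FLAG IP replicate 2.

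Among 25 genes at the output of the pathway 23 were tested, 4 were higher and 2 lower, and the median was 0.15. Foxo1, a transcription factor inhibited by AKT and required for spermatogonial stem cells, had levels of 4.67 and 4.24 in the FLAG IP and of 2.07 and 2.13 in the Input. It rose by 2.35 ± 0.20 (adjusted p = 0.0050 in limma), and its other probe had a change of 1.45. Its relative Foxo3 was lower, at −0.93 ± 0.25 (adjusted p = 0.043), and lost its call without FLAG IP replicate 1 (adjusted p = 0.10). Under normexp the change of Foxo3 was −0.58. Rb1cc1, a scaffold of autophagy initiation, rose by 1.05 ± 0.27 (adjusted p = 0.040) on the brightest of its probes. Of its 5 other probes 1 also passed, at 1.23 (adjusted p = 0.012), and the rest had changes between −0.30 and 0.74 that did not pass. Averaged over its probes Rb1cc1 had a change of 0.56 (adjusted p = 0.044), and without FLAG IP replicate 2 the brightest probe was at 0.69. Rps6, the substrate of S6 kinase, had levels of 4.39 and 3.34 in the FLAG IP and of 5.66 and 5.58 in the Input. It fell by 1.76 ± 0.37 (adjusted p = 0.025), and did not pass after quantile normalization (adjusted p = 0.055). When either Input array was left out, 14 of the 18 called genes with the largest changes in these lists, up to 4 per list, lost their calls in each case.

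**Figure D5:**
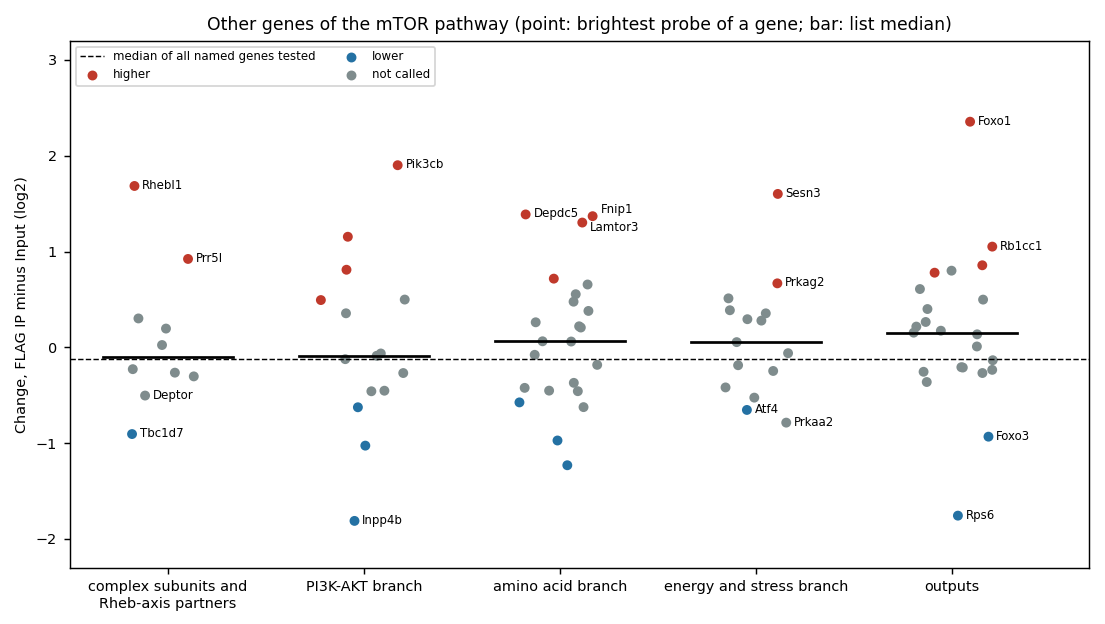
Change of 86 other genes of the mTOR pathway, FLAG IP minus Input in log2 units, by list. Each point is the brightest probe of a gene, red is called higher, blue is called lower and grey is not called, bars are list medians and the dashed line is the median of all named genes tested. Genes named in the text are labelled, from Inpp4b at its fitted value of −1.81 to Foxo1 at 2.35.

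The levels of cell type markers moved on the same arrays, each gene taken by its brightest probe. All 54 marker genes with a probe were well above background in at least 1 group, so germ cells and the somatic cells of testis were represented. The 8 general germ cell markers had no calls in limma and a median of 0.14. Their summed level was 68.2 to 90.6 in the FLAG IP and 68.5 to 68.6 in the Input. Summed levels add the ratios to the 75th percentile before the log2 step, so the brightest probes weigh most. Among 11 markers of undifferentiated spermatogonia well above background on all 4 arrays, 8 were higher and 1 lower, against 15.4% and 18.7% of all such named genes. Over the 12 tested the median was 1.45, or 1.26 with members below background at their bound, with summed levels of 15.5 to 18.6 against 4.67 to 4.79. Nanos2, the tagged gene, rose by 1.58 ± 0.22 (adjusted p = 0.011).

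Among 32 markers of somatic and blood cells well above background on all 4 arrays, 14 were lower and 0 higher in limma by their brightest probes. Of all such named genes 18.7% were lower and 15.4% higher. By list, 3 of 9 Sertoli, 2 of 5 Leydig and 3 of 6 peritubular myoid markers were lower. For endothelial cells it was 0 of 5, for macrophages 4 of 4 and for red blood cells 2 of 3. Another probe of Hbb-bt, a beta globin gene of red blood cells, was higher by 0.69 (adjusted p = 0.035), against −0.98 for the brightest. Summed levels were 117 to 122 in the FLAG IP against 162 to 166 in the Input for Sertoli cells, 13.3 to 17.1 against 28.2 to 37.3 for Leydig cells, and 71.2 to 73.1 against 108 to 119 for peritubular myoid cells. They were 1.40 to 1.95 against 1.88 to 2.65 for endothelial cells, 1.11 to 1.24 against 2.67 to 2.74 for macrophages, and 23.0 to 28.8 against 44.1 to 67.9 for red blood cells. The list medians lay between −1.11 and −0.44. The part of these marker shifts in the changes of Rheb, Mtor, Tsc2 and the other mTOR genes was not tested. Marker levels here give shares of the recovered RNA, not shares of cells.

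Over the 4 arrays, the genes outside the lists whose pattern was most like that of Mtor were Tcf3, Ints1 and Vmo1, each probe taken relative to its own mean. Tcf3 differed from Mtor by at most 0.011 on any array, and Ints1 and Vmo1 by at most 0.013 and 0.027. In all, 206 named probes outside the lists lay within 0.1 of Mtor on every array, so these genes were 3 of many.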

How the data were processed

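Spot intensity files were deposited by the authors as written by Agilent Feature Extraction, version 9.5 per the submitters' processing notes. Per the file headers, they hold background-subtracted processed signal intensities, raw median and background intensities, and flags. All 4 arrays lay on 1 slide and were read in 1 scan, so no batch block was fitted. The authors' deposited table holds log2 values that differ from log2 processed signals by 1 offset per array, within 0.01 for 99.6% of probes; its column medians were 6.25 and 6.15 for the FLAG IP and 6.18 and 6.25 for the Input. The sources used here name no software for it. A description field of each sample names a fetal gonad, and the titles' postnatal day 7 was used.

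From 43379 non-control spots per array, 62 to 90 outlier spots were left out, 0 were saturated, and spots of a probe were averaged on the log2 scale. Each array was scaled to its 75th percentile, which was 1019 and 1267 in the FLAG IP and 1474 and 1676 in the Input. Between 66.3% and 68.4% of probes were well above background, and array number limits the precision. RefSeq accessions without version were matched to assembly GRCm38.p6, which named 22951 of 41174 probes. Because the array design used an older build, no coordinates or sequences are given.

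The groups were tested in R 4.3.3 by limma 3.58.1 (lmFit and eBayes, two-sided, without covariates), and intervals are 95% moderated intervals. On simulated data of 27823 probes, with 200 changed, the fit recovered 62% of changes of 2 log2 units and 0% of 1 unit. Median estimates were 1.95 and 0.99. In the data 35.6% of tested probes were called, so the adjusted cutoff was stricter in the simulation than in the data. The recovered shares therefore do not carry over to the data. Alternatives were quantile normalization, normexp with an offset of 50, spike-in scaling, the deposited table, other filters and a replicate block. Further ones were trend and robust moderation, 1 value per gene and leaving out each array. The genes and lists were chosen with earlier results of these data known. The text names every probe of the 10 genes, up to 4 genes per pathway list, taking called genes before others and ranking by size of change, and the 3 genes most like the called probe with the largest fall. The same was planned for the largest rise, but that Rictor probe has only a bound in the Input, and no likeness to it is given. Some genes that this rule takes are not reported here.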

Additional observations from a re-analysis of the deposited data

How the results depend on the processing

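Of the 15 tested probes of the mTOR genes 2 were called higher and 3 lower. Of all 27830 tested probes 4331 (15.6%) and 5580 (20.1%) were. Quantile normalization and normexp kept all 5 calls. So did the authors' deposited table, whose columns all have a 75th percentile of 9.76. It thus carries the same signals and scaling as the main fit, and is no separate check. Spike-in scaling gave 0 higher and 9 lower of the 15 mTOR probes, beside 715 and 17418 of all 27830 tested. It moved the split of all calls from 43.7% higher to 3.94%. Newly lower were the probes of Rptor, Mlst8, Ddit4 and Eif4ebp1 and probe A_51_P155018 of Tsc1, as were most probes on the array. Normexp moved the median of all tested probes by 0.14, with 50.4% of calls higher. Without a filter on dim probes, and with only probes above background on all arrays, 1 mTOR probe was called higher, and without the filter 3608 of all probes were lower and Rps6, Rb1cc1, Foxo3, Prkag2 and Atf4 lost their calls. With the brightest probe of each gene, or probes averaged, 1 was called higher and 2 lower.

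Leaving out 1 array gave 0 to 3 called higher and 0 to 3 lower for the mTOR genes, and 1166 to 4873 and 641 to 5709 for all probes. The low ends were without an Input array, a fit with 1 Input and 1 residual degree of freedom from the FLAG IP pair: 1166 and 775 without Input replicate 1, and 1266 and 641 without Input replicate 2. Without a FLAG IP array the 1 residual degree of freedom comes from the Input pair, so the spread of the FLAG IP does not enter. The labels do not say whether same-numbered arrays are paired. The fit with the replicate block gave 2874 higher and 2702 lower and ended the calls of Tsc2 (adjusted p = 0.087), Tbc1d7, Prkag2 and Atf4, and a crossed pairing, tried after a correlation of −0.38 between deviations of same-numbered arrays was seen, gave 5587 and 7944. Trend and robust moderation called the brighter Eif4ebp1 probe lower (adjusted p = 0.048).

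Signs turned under spike-in scaling for Rptor (−0.94), the Rictor probes A_52_P145412 (−0.16) and A_52_P616473 (−0.68), the Tsc1 probe A_52_P267779 (−0.82), Rps6kb1 (−0.76), Prr5l (−0.050) and Prkag2 (−0.30). They turned under quantile normalization for Mlst8 (0.054) and Ddit4 (0.16), under normexp for Inpp4b (0.031), and with probes averaged for A_52_P267779 of Tsc1 (−0.28). Leaving out 1 array turned the sign of Rptor (−0.10 to 0.15), Eif4ebp1 A_52_P283674 (−0.29 to 0.14) and Mlst8 (−0.17 to 0.080). None of the 5 called probes turned sign as single probes; averaged with its other probes, Tsc1 stayed negative. The cause of these differences was not tested.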
